A study of Homo sapiens with 6 samples.

Results

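β-catenin (CTNNB1) and the proteins that control its breakdown were followed at the RNA level in A549 cells, a human lung adenocarcinoma line, after knockdown of BAP18. The group holds 10 genes, chosen by name from the rows of the deposited count table: CTNNB1, the scaffolds APC, AXIN1 and AXIN2, the kinases GSK3A, GSK3B and CSNK1A1, the ubiquitin ligase subunit BTRC, and the tankyrases TNKS and TNKS2. All 10 were among the 35474 genes listed, and all 10 passed the filter on low counts that left 20776 genes to test. They lie on 7 chromosomes.

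To ask which genes depend on BAP18, a chromatin protein encoded by C17orf49, A549 cells were transfected with an siRNA against BAP18 (siBAP18) or with a non-specific siRNA (siCtrl) and collected 48 h later. Each group had 3 cultures, described as biological replicates, and poly(A) RNA of each was sequenced as 1 library. Every comparison sets the 3 siBAP18 libraries against the 3 siCtrl libraries, so p-values measure the spread between these cultures of 1 cell line. The labels do not say which BAP18 siRNA was used, so an effect of the knockdown and one of the siRNA itself cannot be told apart, and neither can fewer cells expressing a gene and less RNA per cell.

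In the absence of a Wnt signal, β-catenin is held by AXIN and APC, phosphorylated first by casein kinase 1α and then by GSK3, and tagged by the β-TrCP ubiquitin ligase for the proteasome. Tankyrases mark AXIN for degradation and so limit the complex, while a Wnt signal inactivates it and lets β-catenin reach TCF/LEF factors in the nucleus. β-catenin also joins cadherins to the actin skeleton at cell junctions. These steps act on protein, which RNA sequencing does not measure.

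The target of the siRNA fell. Against 743, 751 and 705 reads in siCtrl, C17orf49 kept 120, 137 and 108 with siBAP18, a log2 fold change of −2.65 (SE 0.11, edgeR adjusted p = 7.31e-16). Reads of overlapping genes on either strand may be included. The readthrough gene RNASEK-C17orf49 on the same strand shares 44.3% of the C17orf49 exon bases, and MIR497HG on the opposite strand shares 55.8%. Total counts ranged from 42094524 to 56548620 per library, and mitochondrial genes took 6.86% to 7.43% of them in siCtrl and 5.27% to 6.14% in siBAP18. The epithelial keratin KRT8 stood at 1880 to 2003 RPKM in siCtrl and 1384 to 1617 in siBAP18, its partner KRT18 at 1799 to 1894 and 1442 to 1663, and EPCAM at 32.0 to 36.4 and 23.3 to 28.0. CDKN2A, a gene deleted in A549, had 0 to 7 counts. Of the markers of other cell types, VWF had 0 to 6 counts per library, PECAM1 had 27 to 45 counts in siCtrl and 8 to 20 in siBAP18, and COL1A1 stood at 1.16 to 1.31 RPKM in siCtrl and 0.844 to 1.02 in siBAP18. KRT8, KRT18, EPCAM, PECAM1 and COL1A1 were thus lower in every siBAP18 library, and the part of other cell types in the results was not tested. PTPRC, CD3E and DCN were not analysed here.

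At an adjusted p under 0.05, 7 of 10 passed, against 49.6% of all genes tested. AXIN1, CSNK1A1 and GSK3A rose (3 of 10, against 24.5% of all genes), and TNKS2, APC, CTNNB1 and AXIN2 fell (4 of 10, against 25.1%), while GSK3B, BTRC and TNKS did not pass. With an absolute log2 fold change over 1 required as well, 0 of the 10 passed, against 8.46% of all genes. The median log2 fold change of the 10 was −0.04, beside 0.0010 over all genes tested. In 7 of 10 the 3 siBAP18 values did not overlap the 3 siCtrl values, beside 56.6% of all genes.

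**Figure D1:**
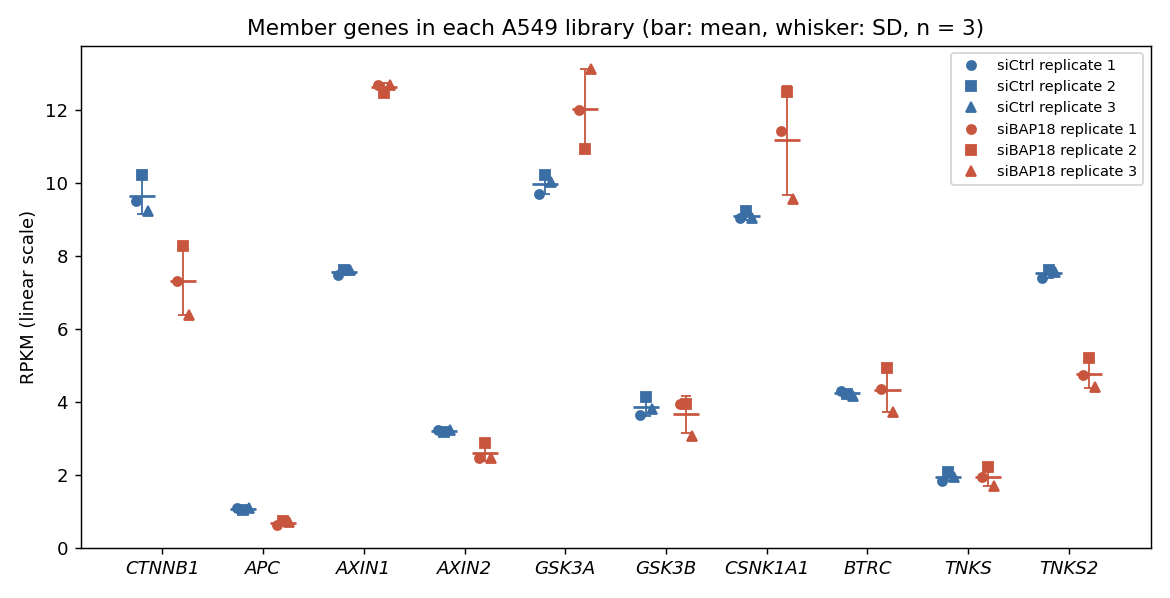
RPKM (read counts per kilobase of gene, scaled by the library total, linear scale) of the 10 genes in each library, with siCtrl in blue and siBAP18 in red, symbols for replicates, bars for the mean and whiskers for the SD of 3 libraries. AXIN1 rose from a mean of 7.55 to 12.6, TNKS2 fell from 7.51 to 4.76, and TNKS had a mean of 1.95 in both groups.

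Levels were compared between genes on the RPKM scale, which divides by gene length. In siCtrl the order of mean RPKM was GSK3A (9.96 ± 0.267, SD, n = 3), CTNNB1 (9.63 ± 0.509), CSNK1A1 (9.09 ± 0.108), AXIN1 (7.55 ± 0.0801), TNKS2 (7.51 ± 0.118), BTRC (4.23 ± 0.0732), GSK3B (3.85 ± 0.246), AXIN2 (3.21 ± 0.0299), TNKS (1.95 ± 0.124) and APC (1.07 ± 0.0352). The neighbours GSK3A and CTNNB1, and AXIN1 and TNKS2, overlapped in range, and the other neighbours did not. In siBAP18 the order was AXIN1 (12.6 ± 0.125), GSK3A (12.0 ± 1.10), CSNK1A1 (11.2 ± 1.49), CTNNB1 (7.31 ± 0.939), TNKS2 (4.76 ± 0.399), BTRC (4.32 ± 0.596), GSK3B (3.65 ± 0.509), AXIN2 (2.59 ± 0.232), TNKS (1.95 ± 0.25) and APC (0.681 ± 0.0600). There AXIN1 overlapped GSK3A, GSK3A overlapped CSNK1A1, TNKS2 overlapped BTRC and BTRC overlapped GSK3B. In mean RPKM, AXIN1 stood below GSK3A, CTNNB1 and CSNK1A1 in siCtrl and above all 3 in siBAP18. This order of means did not hold in every siBAP18 library. CSNK1A1 was above AXIN1 in replicate 2 (12.49 against 12.46 RPKM), and GSK3A was above AXIN1 in replicate 3 (13.1 against 12.7 RPKM).

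CTNNB1, which encodes β-catenin itself, lies at chr3:41194837-41260096 on the plus strand of GRCh38. Its CPM values (counts relative to a library total scaled by TMM) were 63.3, 66.8 and 61.4 in siCtrl and 47.9, 52.9 and 43.8 in siBAP18, here and throughout in the order of replicates 1, 2 and 3. All siBAP18 libraries were below all siCtrl libraries. CTNNB1 RNA fell to 0.756 of its siCtrl level (log2 fold change −0.40, SE 0.074, adjusted p = 5.70e-05), and 58.7% of the genes tested had a smaller absolute log2 fold change. With offsets for GC content and gene length, explained with the spread of the siBAP18 libraries, the log2 fold change was −0.26 (adjusted p = 0.000449).

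Of the scaffold genes, AXIN1 rose while APC and AXIN2 fell. AXIN1 encodes the scaffold that brings β-catenin, APC, GSK3 and casein kinase 1α together, and lies at chr16:287440-352673 on the minus strand. It measured 56.3, 56.3 and 57.3 CPM in siCtrl and 94.2, 90.4 and 98.6 CPM in siBAP18. The groups lay far apart beside their spread, and the log2 fold change of 0.74 (SE 0.066, 1.67-fold, adjusted p = 1.11e-09) was the largest in absolute value of the 10 genes, with 82.7% of genes tested below it. With the offsets for GC content and length the log2 fold change of AXIN1 was 0.60 (adjusted p = 6.08e-10). APC, the tumor suppressor that presents β-catenin to its kinases, lies at chr5:112707498-112846239 on the plus strand. It measured 13.6, 12.6 and 13.7 CPM in siCtrl and 7.57, 8.75 and 9.10 CPM in siBAP18, with every siBAP18 library lower. APC fell to 0.636 of its siCtrl level (log2 fold change −0.65, SE 0.093, adjusted p = 2.10e-06), but by 0.34 on the log2 scale with the offsets for GC content and length (adjusted p = 0.00277). CTC-554D6.1 shares 1.85% of the APC exon bases on the same strand. Its mean was 28.1 CPM in siCtrl and 36.9 in siBAP18, above APC, and it rose (log2 fold change 0.39, adjusted p = 7.29e-05). Shared reads could thus affect APC. AXIN2, a scaffold like AXIN1 and itself a widely used target gene of β-catenin, lies at chr17:65528563-65561647 on the minus strand. It measured 17, 16.4 and 17 CPM in siCtrl and 12.8, 14.5 and 13.3 CPM in siBAP18, again without overlap. AXIN2 fell by 0.31 on the log2 scale (SE 0.081, adjusted p = 0.00230), and its log2 fold change with the offsets was −0.38 (adjusted p = 9.36e-05). The gene CTD-2535L24.2 covers 25.2% of the AXIN2 exon bases on the same strand and was itself lower in siBAP18 (log2 fold change −0.51, adjusted p = 0.000806), so reads of these 2 genes may not be fully separated.

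As examples of a scaffold gene that rose and of one that fell, AXIN1 and APC are shown by the 250 bases before their RefSeq starts (GRCh38.p14, 5′ to 3′ on the gene's strand). Capitals mark the GC box GGGCGG and the CCAAT box CCAAT, each on either strand. APC has 2 annotated starts.
AXIN1, chr16:352724-352973, minus strand: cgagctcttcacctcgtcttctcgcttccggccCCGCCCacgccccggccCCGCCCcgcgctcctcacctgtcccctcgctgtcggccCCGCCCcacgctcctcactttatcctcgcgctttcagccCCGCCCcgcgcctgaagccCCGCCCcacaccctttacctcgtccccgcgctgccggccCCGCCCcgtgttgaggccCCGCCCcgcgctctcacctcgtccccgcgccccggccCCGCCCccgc
APC, chr5:112707248-112707497, plus strand: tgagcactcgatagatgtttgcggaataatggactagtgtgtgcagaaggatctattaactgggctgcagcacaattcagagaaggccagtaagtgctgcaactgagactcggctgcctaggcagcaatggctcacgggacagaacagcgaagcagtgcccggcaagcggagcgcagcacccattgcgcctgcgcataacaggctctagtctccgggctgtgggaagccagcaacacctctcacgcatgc
APC, the downstream start, chr5:112737635-112737884, plus strand: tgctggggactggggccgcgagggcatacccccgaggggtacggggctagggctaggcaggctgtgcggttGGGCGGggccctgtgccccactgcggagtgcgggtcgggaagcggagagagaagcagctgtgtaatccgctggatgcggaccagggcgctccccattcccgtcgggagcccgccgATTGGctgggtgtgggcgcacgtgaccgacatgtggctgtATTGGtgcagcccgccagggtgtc
The AXIN1 window had a GC content of 77.6% with 35 CpG dinucleotides and 8 GC boxes. The upstream APC window had a GC content of 56.4% with 12 CpG, no GC box and no CCAAT box, and the downstream APC window had 70.0% with 21 CpG, 1 GC box and 2 CCAAT boxes. Among 34943 windows of the same length the median GC content was 58%, 42.5% held a GC box and 32.0% a CCAAT box. For AXIN2, BTRC and TNKS no window was available, so these genes, among them the β-catenin target AXIN2, were not searched. The TCF/LEF words CTTTGAT and CTTTGAA, searched on both strands, were in none of the 9 windows found for 7 of the 10 genes, and 5.96% of all windows held either word. Among the other windows, that of CTNNB1, which fell, lies inside the gene (chr3:41199255-41199504). It had a GC content of 74.4% with 34 CpG and 3 GC boxes. TNKS2, which also fell, had 26 CpG and no GC box. GSK3A, which rose, had a GC content of 65.2% with 28 CpG and 2 GC boxes. CSNK1A1, which rose, had 31 CpG and 2 GC boxes in 1 window, and 9 CpG and no GC box in the other. GSK3B, which did not pass, had a GC content of 68.8% with 27 CpG, 2 GC boxes and 1 CCAAT box. The windows of CTNNB1, TNKS2 and GSK3A and the first of CSNK1A1 overlap exons of their own genes. AXIN1 and APC thus do not stand for all members, and a link of these letters to direction was not tested. These matches describe letters in a window and say nothing of binding.

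Of the kinases, GSK3A and CSNK1A1 rose and GSK3B did not pass. GSK3A encodes GSK3α, which phosphorylates β-catenin as GSK3β does, and lies at chr19:42230186-42242625 on the minus strand. It measured 40.3, 41.7 and 41.6 CPM in siCtrl and 49, 43.6 and 56.2 CPM in siBAP18. The lowest siBAP18 library, replicate 2, was only slightly above the siCtrl libraries and replicate 3 was the highest. The log2 fold change was 0.27 (SE 0.079, adjusted p = 0.00651), and without siBAP18 replicate 3 it was 0.17 (adjusted p = 0.0212). AC006486.9, which covers 11.6% of the GSK3A exon bases on the same strand, rose as well (log2 fold change 0.36, adjusted p = 0.000422). GSK3B, at chr3:119821323-120094417 on the minus strand, measured 29.4, 32.7 and 30.6 CPM in siCtrl and 31.4, 30.5 and 25.4 CPM in siBAP18. The groups overlapped, with siBAP18 replicate 3 alone below all siCtrl libraries. Its log2 fold change was −0.083 (SE 0.080, adjusted p = 0.411) and did not keep its sign in every alternative, standing at 0.0040 without siBAP18 replicate 3 and at 0.13 with the offsets (adjusted p = 0.10).

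CSNK1A1 encodes casein kinase 1α, which places the priming phosphate on β-catenin, and lies at chr5:149492197-149551552 on the minus strand. It measured 70.5, 70.6 and 70.4 CPM in siCtrl and 87.8, 93.7 and 76.8 CPM in siBAP18. The siCtrl values were almost equal and all siBAP18 libraries were higher. CSNK1A1 rose 1.22-fold (log2 fold change 0.29, SE 0.072, adjusted p = 0.00169), and the change was larger, at 0.59, with the offsets for GC content and length (adjusted p = 1.44e-09). CTB-89H12.4 covers 37.7% of the CSNK1A1 exon bases on the same strand and did not pass (0.054 on the log2 scale, adjusted p = 0.629), but rose with the offsets (0.45, adjusted p = 3.03e-06), so how reads were divided between the 2 could affect CSNK1A1.

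BTRC, the subunit of the β-TrCP ligase that recognizes phosphorylated β-catenin, is at chr10:101354033-101557321 on the plus strand. It measured 28.7, 27.6 and 27.7 CPM in siCtrl and 28.5, 31.4 and 25.5 CPM in siBAP18. The siBAP18 libraries stood on both sides of the siCtrl libraries. Its log2 fold change was 0.027 (SE 0.078, adjusted p = 0.799), and the sign turned to −0.050 without siBAP18 replicate 2.

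Of the tankyrases, TNKS2 fell and TNKS did not pass. TNKS2, at chr10:91798312-91865276 on the plus strand, measured 45.8, 46.3 and 46.9 CPM in siCtrl and 28.9, 30.9 and 28.0 CPM in siBAP18. Every siBAP18 library was below every siCtrl library, and TNKS2 fell to 0.632 of its siCtrl level (log2 fold change −0.66, SE 0.069, adjusted p = 1.54e-08). TNKS, on chromosome 8, measured 26.2, 29.2 and 27.6 CPM in siCtrl and 27.3, 30.2 and 25.1 CPM in siBAP18. The groups overlapped and the log2 fold change was −0.0023 (SE 0.078, adjusted p = 0.983). With the offsets for GC content and length TNKS passed at 0.22 (adjusted p = 0.00400), which made 8 of 10 genes in that fit. RP11-375N15.2, on the opposite strand, shares 4.28% of the TNKS exon bases.

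**Figure D2:**
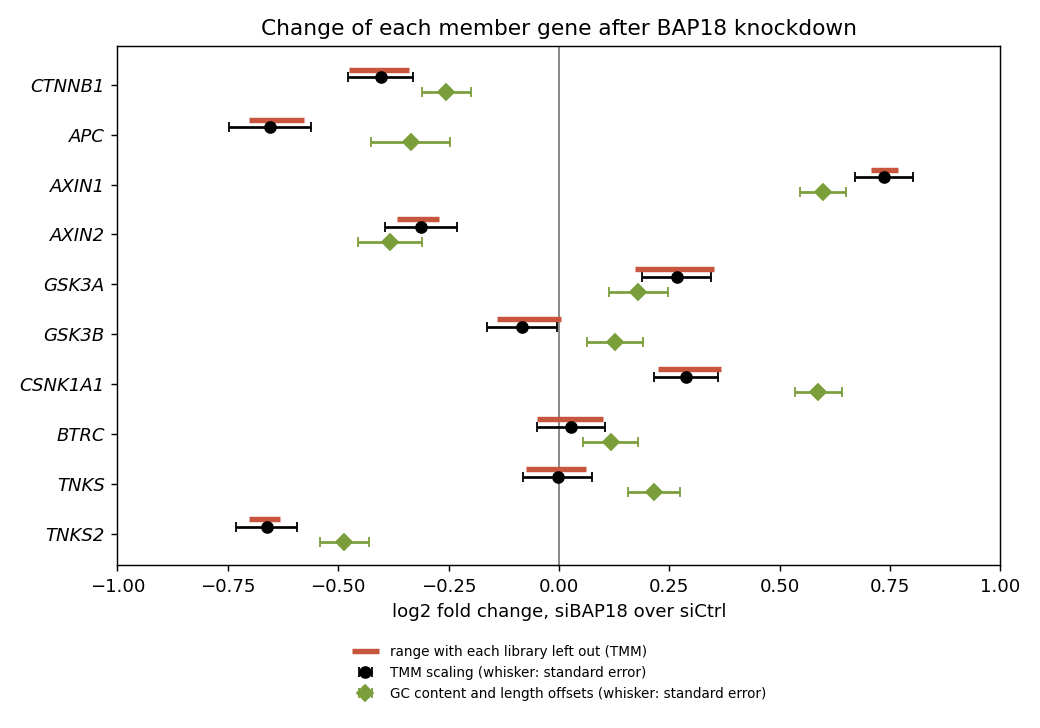
Log2 fold change of the 10 genes, siBAP18 over siCtrl, with TMM scaling (black points, whiskers for the SE), the range of values with each of the 6 libraries left out in turn (red bars), and the values with offsets for GC content and gene length (green diamonds, whiskers for the SE). CSNK1A1 moved from 0.29 to 0.59 and APC from −0.65 to −0.34 with the offsets.

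Members of the same family were then compared within each library, which removes the library's scale. The RPKM ratio of AXIN1 to AXIN2 was 2.32, 2.39 and 2.35 in siCtrl and 5.14, 4.36 and 5.18 in siBAP18. The mean went from 2.35 ± 0.0369 to 4.89 ± 0.462 (SD, n = 3), a difference of 1.05 on the log2 scale, and the groups did not overlap (2-sided exact permutation p = 0.10, the smallest that 3 against 3 allows). The ratio of TNKS to TNKS2 was 0.248, 0.273 and 0.255 in siCtrl and 0.411, 0.425 and 0.388 in siBAP18, a difference of 0.66 on the log2 scale with no overlap (2-sided exact permutation p = 0.10). The ratio of GSK3A to GSK3B was 2.66, 2.47 and 2.64 in siCtrl and 3.03, 2.78 and 4.29 in siBAP18, a difference of 0.35 on the log2 scale (2-sided exact permutation p = 0.10). That last mean leaned on siBAP18 replicate 3, without which the difference was 0.17. With the offsets for GC content and length the differences were 0.98 for AXIN1 and AXIN2, 0.70 for TNKS and TNKS2 and 0.053 for GSK3A and GSK3B.

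**Figure D3:**
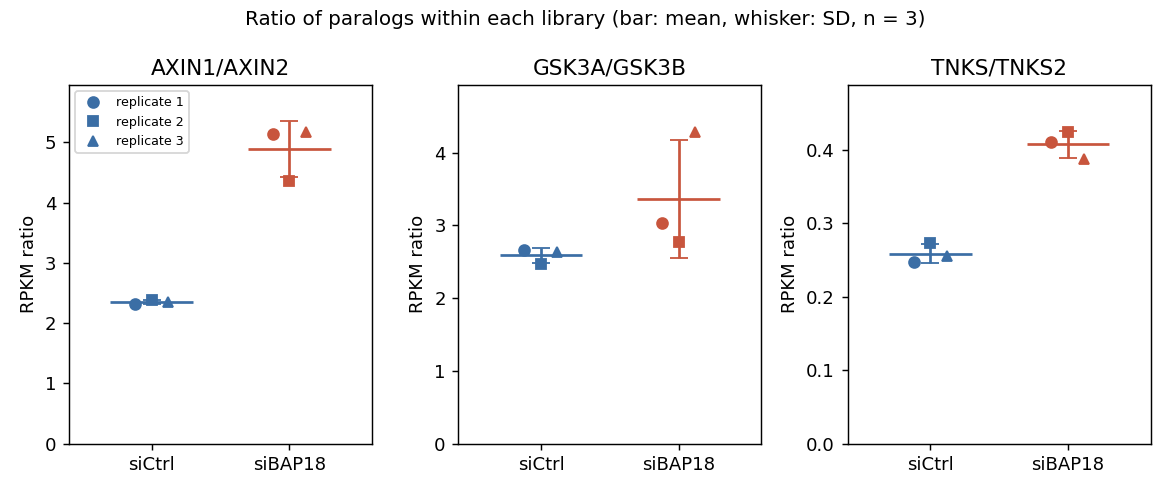
RPKM ratio of paralogs in each library (linear axes from 0), with siCtrl in blue, siBAP18 in red, bars for the mean and whiskers for the SD of 3 libraries. The AXIN1/AXIN2 ratio moved from a mean of 2.35 to 4.89 and the TNKS/TNKS2 ratio from 0.259 to 0.408, while siBAP18 replicate 3 alone reached 4.29 for GSK3A/GSK3B.

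The spread of the 10 genes was wider in siBAP18. The coefficient of variation of CPM ran from 0.167% to 5.37% in siCtrl and from 4.37% to 12.7% in siBAP18, and it was larger in siBAP18 for 10 of 10 genes, beside 65.3% of all genes tested. Within siBAP18, replicate 3 was the lowest library for 6 of the 10 genes and the highest for 3, and replicate 2 was the highest for 6 and the lowest for 2. Across 14176 genes the deviation of a library from its group mean went with the GC content of the transcript, with a Pearson r of −0.48 in siBAP18 replicate 2, 0.48 in siBAP18 replicate 3 and −0.089 to 0.073 in the other libraries. This r is across genes, which are not independent replicates, and the genes share the libraries. Deviations from a group mean cancel out within the group, so the opposite r of replicates 2 and 3 are not independent. They cannot tell whether 1 library or both departed. The log2 fold change itself had an r of 0.29 with GC content. The transcripts of the 10 genes range in GC content from 39.4% for CSNK1A1 and 39.6% for APC through 52.0% for GSK3A and 53.1% for AXIN2 to 63.8% for AXIN1. The part of GC content in the results was not tested. The offsets were fitted on GC content and gene length to each library's deviation from the mean of all 6 libraries. They therefore also remove any difference between siBAP18 and siCtrl that follows GC content or length. With these offsets, the 7 genes that passed kept their call and direction. CTNNB1 and APC then changed less and CSNK1A1 more, each by over 1.5 times.

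**Figure D4:**
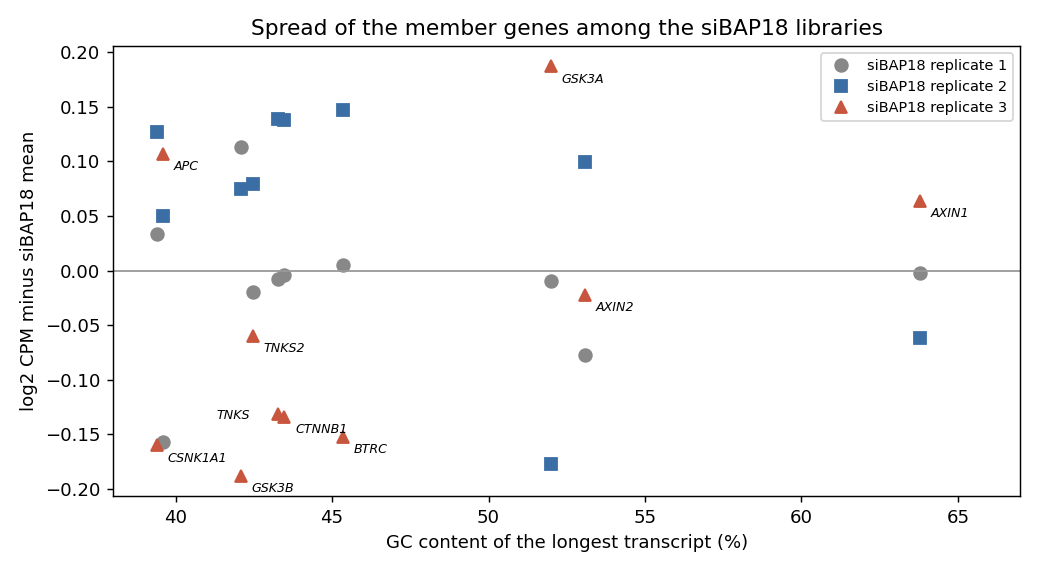
Deviation of each siBAP18 library from the siBAP18 mean (log2 CPM) for the 10 genes, against the GC content of the longest transcript in percent. Replicate 3 lies lowest for 6 genes between 39.4% and 45.3% GC, and highest for APC at 39.6%, GSK3A at 52.0% and AXIN1 at 63.8%.

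Other parts of the pathway were taken from 3 hand-made lists. Of the 34 tested genes for proteins that work with the complex, 16 passed, 11 higher and 5 lower, or 47.1% beside 49.6% of all genes, with a median log2 fold change of 0.09. PPP2R1B, a scaffold subunit of the phosphatase PP2A, fell from 11.7 ± 1.14 to 6.68 ± 1.22 CPM (SD, n = 3, log2 fold change −0.80, adjusted p = 2.20e-06). FRAT2, a GSK3-binding protein, rose from 9.49 ± 0.834 to 14.7 ± 1.10 CPM (log2 fold change 0.63, adjusted p = 3.08e-06), and CSNK1D, casein kinase 1δ, rose from 123 ± 3.16 to 167 ± 11.2 CPM (0.44, adjusted p = 5.56e-06). USP34, a deubiquitinase, fell from 91.4 ± 3.52 to 66.6 ± 6.32 CPM (−0.46, adjusted p = 9.87e-06), with a log2 fold change of −0.13 under the offsets for GC content and length (adjusted p = 0.0385). DACT1, an inhibitor of Dishevelled named here after its values were seen, was the 1 partner past an absolute log2 fold change of 1 (1.58, adjusted p = 0.00606). It had only 20, 4 and 6 counts in siCtrl and 40, 44 and 12 in siBAP18, passed in 13 of 16 alternatives and ranged from 1.23 to 2.47 on the log2 scale with each library left out.

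Genes of the cadherin and catenin list, not all of them direct partners of β-catenin, changed in both directions. Of 9 cadherin and catenin genes tested, 6 passed (66.7%, beside 49.6% of all genes), 3 higher (beside 24.5%) and 3 lower (beside 25.1%, median log2 fold change −0.04), while CTNNA2 and CTNNA3 were below the filter. CTNNA1, α-catenin (log2 fold change −0.04, adjusted p = 0.656), CDH3 and VCL did not pass, and are named after their values were seen. CDH1, which encodes E-cadherin, fell from 63.9 ± 1.27 to 25.5 ± 0.202 CPM (log2 fold change −1.32, adjusted p = 3.81e-14). CTNND1, p120-catenin, fell from 240 ± 1.85 to 125 ± 7.63 CPM (−0.95, adjusted p = 1.47e-11), and JUP, plakoglobin, fell from 234 ± 12.2 to 129 ± 11.5 CPM (−0.85, adjusted p = 3.82e-10). CDH4, R-cadherin, rose from 2.46 ± 0.346 to 4.07 ± 0.328 CPM (0.72, adjusted p = 0.000214). CDH2, N-cadherin, named after its values were seen, rose from 43.8 ± 2.27 to 51.6 ± 5.11 CPM (0.24, adjusted p = 0.0116). Its groups overlapped, and it passed in 11 of 17 alternatives. Besides CDH1, CTNND2, δ-catenin, picked out after its values were seen, stood past an absolute log2 fold change of 1 (1.18, adjusted p = 0.0267). It had only 16, 4 and 10 counts in siCtrl and 32, 26 and 14 in siBAP18, and the call did not hold with each library left out (0.83 to 1.61, adjusted p up to 0.152) and was made in 10 of 16 alternatives.

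Of 9 β-catenin target genes tested, 7 passed (77.8%, beside 49.6% of all genes), 2 higher (beside 24.5%) and 5 lower (beside 25.1%), with a median log2 fold change of −0.31. The median was −0.21 with the offsets and −0.14 with limma on log2(RPKM + 1). CCND1, the G1 cyclin D1, fell from 378 ± 15.7 to 218 ± 16.8 CPM (log2 fold change −0.79, adjusted p = 8.03e-10). TCF7, a TCF/LEF factor, fell from 10.4 ± 0.624 to 6.65 ± 0.493 CPM (−0.65, adjusted p = 5.75e-06). CD44, an adhesion receptor, fell from 402 ± 8.92 to 317 ± 7.76 CPM (−0.34, adjusted p = 7.60e-05), and stood at −0.21 with the offsets. ZNRF3, a ubiquitin ligase that removes Wnt receptors, fell from 12.0 ± 0.565 to 9.67 ± 0.199 CPM (−0.31, adjusted p = 0.00481). The other lower gene, TNFRSF19, named after its values were seen, fell the most of the targets (−0.93, adjusted p = 0.00337). It had only 68, 62 and 48 counts in siCtrl and 32, 42 and 24 in siBAP18, and passed in 17 of 17 alternatives. The 2 higher were DKK1, a secreted Wnt inhibitor (0.17, adjusted p = 0.0340), and MMP7, a matrix protease (0.19, adjusted p = 0.0421), both named after their values were seen. Neither passed without siCtrl replicate 1, 2 or 3 or without siBAP18 replicate 1. APCDD1, ASCL2, LEF1, LGR5, NOTUM and SP5 were below the filter on low counts. MYC, with a log2 fold change of −0.03 (adjusted p = 0.771), and RNF43, at −0.09 (adjusted p = 0.278), did not pass, and both are named after their values were seen.

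**Figure D5:**
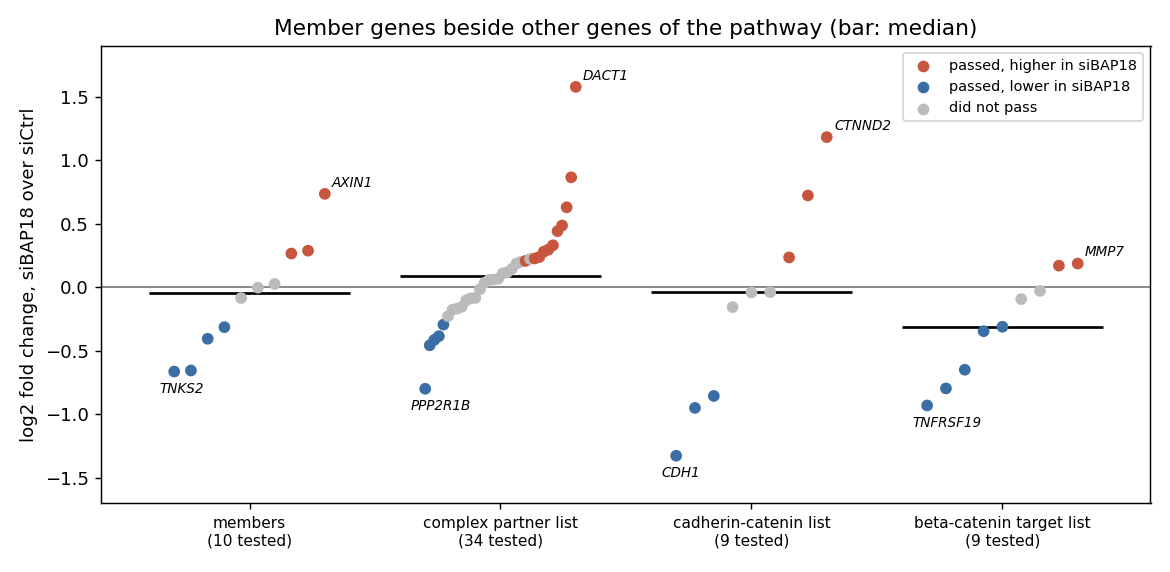
Log2 fold change, siBAP18 over siCtrl, of each tested gene in the 10-gene group and the 3 lists (points in order of value, red passed higher, blue passed lower, grey did not pass, bars for the median). Of the genes tested, 34 partners had a median of 0.09 and 9 targets a median of −0.31, and CDH1 was the lowest at −1.32.

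The genes whose CPM across the 6 libraries was most like that of CTNNB1, after centring log2 CPM on its mean, were UBE2H (root-mean-square difference 0.0114), ZBTB38 (0.0218) and COPB1 (0.0220), among 14222 genes. UBE2H, a ubiquitin-conjugating enzyme, went from 200 ± 7.75 to 152 ± 15.3 CPM. The log2 fold changes were −0.39 for UBE2H, −0.42 for ZBTB38, −0.42 for COPB1 and −0.40 for CTNNB1. With the offsets for GC content and length they lay further apart, at −0.34, −0.13, −0.20 and −0.26 in the same order.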

How the data were processed

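Poly(A) RNA of 6 A549 cultures was sequenced in strand-specific libraries. The authors deposited whole-number counts per gene without normalization and RPKM values. The aligner, the counting program and the strand setting are not given in the sources used here, and the submitters' processing notes list hg38 and GRCm38 as builds. Total counts were 53657450, 46035635 and 47099816 in siCtrl and 53996860, 56548620 and 42094524 in siBAP18.

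In R 4.3.3, edgeR 4.0.16 kept 20776 genes by filterByExpr, scaled libraries by TMM and ran the quasi-likelihood test, with p-values adjusted over all of them by Benjamini-Hochberg. A gene passed at an adjusted p under 0.05. The SE of a log2 fold change is its size over the root of the F value. Alternatives used limma 3.58.1 and DESeq2 1.42.0, other scalings and filters, pseudocounts of 1 and 0.1 on log2 RPKM, a replicate block and each library left out. Offsets for transcript GC content and gene length were added after seeing the data, with a GC value for 99.4% of the genes tested. Paralog ratios were compared by an exact permutation test in Python 3.11.15 with scipy 1.17.1. The edgeR test and a limma fit on log2 CPM were tried on simulated counts, which held no GC trend between libraries. Promoter windows came from RefSeq.

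Named genes are the 10 members, C17orf49, in each list the 4 genes of smallest adjusted p whose average log2 CPM was 1 or more, and the 3 genes most like CTNNB1. The members and lists were chosen with earlier results of these data known. AMER2 was not analysed here.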

Additional observations from a re-analysis of the deposited data

How the results depend on the processing

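The 7 calls kept their direction in all 17 alternatives, and 6 of them passed in each, while CSNK1A1 missed with limma on log2(RPKM + 1) without a filter (0.26, adjusted p = 0.0969). The 3 other genes changed sign around 0. GSK3B ranged from −0.14 to 0.0040 with each library left out, the latter without siBAP18 replicate 3, and stood at 0.13 with offsets for GC content and length, and BTRC ranged from −0.050, without siBAP18 replicate 2, to 0.10 with each library left out and stood at 0.12 with the offsets. TNKS stood at 0.0060 with DESeq2's size factors, 0.0079 with upper-quartile scaling, 0.0050 with totals, 0.0055 with the DESeq2 Wald test, 0.0055 with at least 10 counts in every library and 0.22 with the offsets, and from −0.075 to 0.062 with each library left out. The cause was not tested. The count of all genes ran from 7825 to 10803 at an adjusted p alone and was 1758 with an absolute log2 fold change over 1. That fold threshold left 0 members, 1 partner, 2 cadherin and catenin genes and 0 targets. Limma on log2(RPKM + 1) without a filter left 10 partners and 4 targets, and ZNRF3 missed there (adjusted p = 0.0621). On the log2(RPKM + 1) scale, which understates low genes, APC was −0.30, PPP2R1B −0.46, TCF7 −0.29, ZNRF3 −0.18 and CDH4 0.22. Scaling moved the median of all genes to at most 0.012.

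Residuals of libraries with the same replicate number had r of −0.017, 0.051 and 0.0038 across genes. The labels do not say whether the cultures were paired. These r values cannot decide it, because deviations in some siBAP18 libraries also went with GC content. A replicate block gave 10803 calls over all genes, beside 10305 without it, with 7 members, 19 partners, 7 cadherin and catenin genes and 7 targets. RNA of 1 line, 1 time and 3 cultures a group limits what these values cover.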
